A study of Homo sapiens with 6 samples.

Results

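The genes described here encode the nuclear pore complex and the receptors that carry cargo through it, in Huh7 cells, an established human hepatocellular carcinoma line. They were chosen by name: 44 of the 27394 gene names in the deposited table are a nucleoporin with a NUP number, an importin alpha (KPNA), importin beta (KPNB1), a numbered importin (IPO), a transportin (TNPO) or an exportin (XPO). The naming rule uses no measured value, but it was picked with earlier results of these data known. Per the labels, RNA-seq was done on 3 libraries of cells labelled wild type that carried a control short hairpin RNA (shRNA) and on 3 of cells in which an shRNA knocked down CTSV, the gene of the lysosomal protease cathepsin V. All were grown in DMEM with fetal bovine serum and antibiotics. The sources used here do not give the number of shRNAs or clones, or whether the libraries of a group are separate cultures, so a p-value reflects spread that may be technical between the libraries.

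The nuclear pore complex is a ring of nucleoporins set in the nuclear envelope. Structural nucleoporins form outer and inner rings, and nucleoporins rich in phenylalanine-glycine (FG) repeats fill the channel and bind the passing receptors. Importins pick up cargo in the cytoplasm and release it in the nucleus when they bind the GTPase Ran loaded with GTP, while exportins bind cargo together with Ran-GTP and release it in the cytoplasm. The pathway is used heavily by growing and dividing cells, including liver cancer cells, and the exportin XPO1 is a drug target in cancer.

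Library totals lay between 16258803 and 18106207 counts. CTSV itself stood at 42.3, 44.5 and 41.0 CPM (read counts scaled to library size by edgeR's TMM method) in the controls and at 18.4, 16.0 and 16.3 CPM in the knockdown libraries, a log2 fold change of -1.34 (SE 0.0958, adjusted p = 7.2e-14). Here and below a fold change is CTSV shRNA over control shRNA, the test is the quasi-likelihood test of edgeR, with p-values adjusted by Benjamini-Hochberg over 15968 genes, and a gene "rose" or "fell" where the adjusted p is under 0.05. Marker levels are counts over the library total, without the TMM factor. All 8 hepatocyte markers examined were in the table, with a summed level of 32147 to 33254 CPM in controls and 40405 to 41534 CPM in knockdown libraries. Most of that sum was ALB, AFP and APOB. These, SERPINA1 and HNF4A were higher in each knockdown library than in any control. The ranges of APOA1, FGB and TTR overlapped, with TTR at 131 to 140 CPM in controls and 115 to 135 CPM after knockdown. Of 5 leukocyte markers 3 were in the table and summed to at most 3.19 CPM, and of 3 endothelial markers PECAM1 was, at 16.4 to 21.2 CPM in all libraries. For 3 of 5 stellate and fibroblast markers the sum was 10.3 to 10.8 CPM in controls and 18.9 to 22.7 CPM in knockdown libraries. Nearly all of that sum was COL1A2 (8.54 to 9.997 and 17.8 to 21.2 CPM), while PDGFRB was at 0.718 to 1.47 and 0.737 to 0.948 CPM and COL1A1 stayed under 1 CPM. For 2 of 3 cholangiocyte markers it was 158 to 176 and 151 to 165 CPM. Mitochondrial transcripts took 9.09% to 9.51% of control counts and 11.4% to 11.8% of knockdown counts. Whether these differences play a part in the results below was not tested.

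In knockdown cells, 25 of the 44 genes fell, 4 rose and 15 were not called. Over all tested genes, 21.6% were called lower and 18.7% higher. The genes are more highly expressed than most, with a median of 110.1 CPM against 17.7 CPM over all tested genes. They were therefore also read against all tested genes with a mean of 10 CPM or more. This sets a floor and does not match the level of the genes. Among the 42 with a mean of 10 CPM or more, 25 fell and 3 rose, and 33.4% of all tested genes at that level were called lower and 19.7% higher. All 44 passed the filter on low counts. The median log2 fold change was -0.21, against 0.02 over all tested genes and -0.07 over those at 10 CPM or more. Changes were modest, and the lowest mean level of a gene that fell was 63.3% of its control level (TNPO1). Together the genes took 0.761% to 0.805% of counts in the controls and 0.705% to 0.727% in the knockdown libraries, and these ranges did not overlap. The total includes mitochondrial counts, whose own share was higher in the knockdown libraries, which lowers the share left to other genes. In bulk RNA, fewer cells of one kind and less RNA per cell cannot be told apart.

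**Figure D1:**
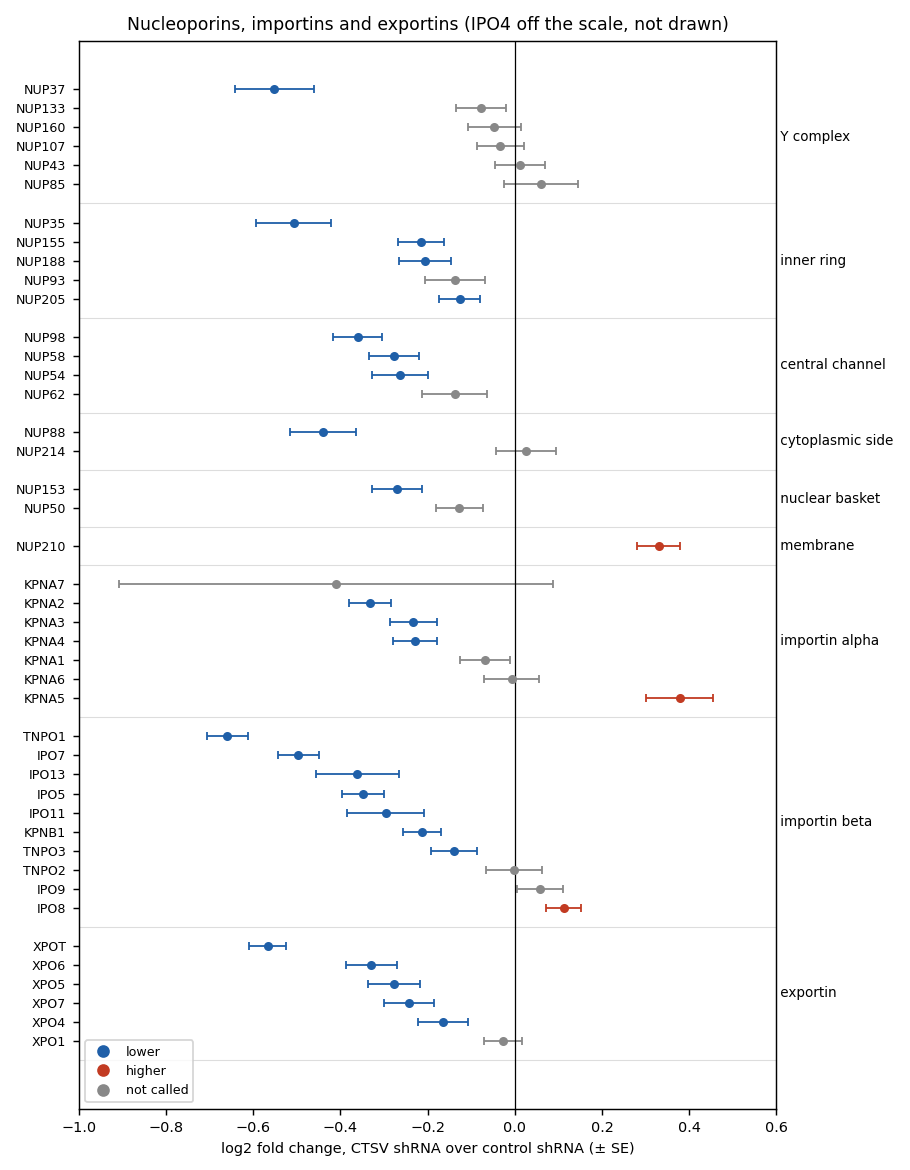
Log2 fold change of 43 of the 44 genes (points, with SE as bars), CTSV shRNA over control shRNA, grouped by place in the pore or class of receptor and coloured by the edgeR call. Most points lie left of zero, with TNPO1 (-0.66), XPOT (-0.57) and NUP37 (-0.55) farthest; NUP210 and KPNA5 stand to the right, and IPO4, measured at very few counts, is not drawn.

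Falls were found among both nucleoporins and receptors. Counts by class here and below stand against 33.4% called lower and 19.7% higher among all tested genes at 10 CPM or more. Of 20 nucleoporins 10 fell and 1 rose, with a median log2 fold change of -0.14. Of 24 transport receptors 15 fell and 3 rose, with a median of -0.23. These include IPO4, which rose, and KPNA7, which was not called. Both have means below 10 CPM and lie outside that background. The genes have long transcripts, with a median of 7510 annotated exonic bases against 4416 over all tested genes. With offsets fitted for transcript length and GC content, 33 of the 44 were called lower and 3 higher, and over all tested genes 4707 were called lower and 2236 higher, against 3451 and 2982 without the offsets. Calls lower outnumbered calls higher under both scalings, and 8 genes not called without the offsets were called lower with them. The median log2 fold change moved from -0.21 to -0.30 in the 44 genes and from 0.02 to -0.07 over all tested genes.

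The 250 bases before the annotated start were examined in the 38 genes whose promoter is in the RefSeq table of GRCh38.p14, a patch release of the hg38 assembly named for the counts. Shown are the promoters of TNPO1, XPOT and IPO7, the 3 receptors with the most negative fold changes, of NUP37, the nucleoporin with the most negative one, and of IPO8 and NUP210, which rose. Each is written 5′ to 3′ on the strand of its gene. On hg38 the genes themselves span chr5:72816312-72916733 (TNPO1), chr12:64404350-64451127 (XPOT), chr11:9384622-9448126 (IPO7), chr12:102073103-102120124 (NUP37) and chr12:30628988-30695986 (IPO8). Capitals mark any of 7 motifs, searched on both strands: CCGGAAG (core of the site of ETS factors), CACGTG (E-box, bound by MYC and other factors), CCAAT (NF-Y box), TTTGAA (a form of the cell cycle genes homology region), GCATGCG (core of the NRF1 site), TGANTCA (AP-1 site) and GGGCGG (GC box).
TNPO1, chr5:72816411-72816660, plus strand: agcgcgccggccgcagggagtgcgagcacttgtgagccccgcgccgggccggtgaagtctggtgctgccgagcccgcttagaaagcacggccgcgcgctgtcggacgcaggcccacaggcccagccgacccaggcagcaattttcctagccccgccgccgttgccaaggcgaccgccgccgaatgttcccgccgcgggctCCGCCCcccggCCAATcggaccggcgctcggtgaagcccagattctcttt
XPOT, chr12:64404142-64404391, plus strand: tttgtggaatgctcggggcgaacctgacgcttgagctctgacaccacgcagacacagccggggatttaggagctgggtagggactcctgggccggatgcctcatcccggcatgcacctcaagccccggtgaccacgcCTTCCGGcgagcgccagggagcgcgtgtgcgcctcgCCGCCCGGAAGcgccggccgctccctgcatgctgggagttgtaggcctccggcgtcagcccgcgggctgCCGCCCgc
IPO7, chr11:9384402-9384651, plus strand: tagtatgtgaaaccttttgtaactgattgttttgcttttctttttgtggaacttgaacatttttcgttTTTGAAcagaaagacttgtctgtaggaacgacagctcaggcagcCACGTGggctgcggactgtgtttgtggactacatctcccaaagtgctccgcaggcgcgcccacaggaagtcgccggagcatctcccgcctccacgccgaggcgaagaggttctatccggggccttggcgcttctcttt
NUP37, chr12:102120115-102120364, minus strand: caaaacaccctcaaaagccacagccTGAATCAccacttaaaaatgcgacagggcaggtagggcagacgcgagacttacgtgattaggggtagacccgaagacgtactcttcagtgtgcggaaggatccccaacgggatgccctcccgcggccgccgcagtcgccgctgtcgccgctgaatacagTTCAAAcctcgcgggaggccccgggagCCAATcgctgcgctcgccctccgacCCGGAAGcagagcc
IPO8, chr12:30695870-30696119, minus strand: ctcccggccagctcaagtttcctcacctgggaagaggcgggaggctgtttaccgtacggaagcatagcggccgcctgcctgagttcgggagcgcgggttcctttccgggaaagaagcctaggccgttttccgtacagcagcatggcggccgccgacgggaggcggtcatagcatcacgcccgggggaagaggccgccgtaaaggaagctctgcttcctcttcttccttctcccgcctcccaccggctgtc
NUP210, chr3:13420323-13420572, minus strand: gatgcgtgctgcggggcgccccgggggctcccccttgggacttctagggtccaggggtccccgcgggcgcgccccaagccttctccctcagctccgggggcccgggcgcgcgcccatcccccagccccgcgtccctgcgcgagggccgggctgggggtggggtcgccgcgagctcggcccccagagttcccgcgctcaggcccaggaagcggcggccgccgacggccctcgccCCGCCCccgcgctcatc
In XPOT a GC box and an ETS core share bases. The start is RefSeq's, and in all shown but NUP210 the gene as annotated by GENCODE already begins inside or before the window. IPO7 and NUP37 hold a TTTGAA, the other 4 do not, and IPO8 holds none of the 7 motifs in this window.

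TTTGAA was present in 8 of the 38 promoters (21.1%), against 8.95% of the promoters of tested genes and 13.6% of all promoters in the table. All 8 belonged to genes that fell: NUP37, NUP35, NUP98, NUP153, NUP205, KPNA2, IPO7 and IPO11. That is 8 of 22 promoters of genes that fell, 0 of 13 of those not called and 0 of 3 of those that rose. The share by call was not counted over all tested genes, so this split has no background to be read against. CCGGAAG was present in 31.6% of the 38, against 15.5% of the promoters of tested genes and 8.82% of all promoters, and its share differed little between genes that fell (31.8%) and genes not called (30.8%). GCATGCG was in 5 promoters (13.2%, against 5.62% and 3.57%), of which 4, NUP62, TNPO2, NUP50 and NUP107, belong to genes not called and 1, IPO11, to a gene that fell. CCAAT was in 44.7% (35.0% and 33.0%), CACGTG in 15.8% (8.84% and 6.49%), TGANTCA in 5.26% (3.93% and 6.6%) and GGGCGG in 52.6% (65.3% and 42.3%). Between genes that fell and genes not called, the shares were 45.5% and 53.8% for CCAAT and 13.6% and 15.4% for CACGTG. For TGANTCA they were 4.55% and 0%, and for GGGCGG 59.1% and 46.2%. These counts describe letters in a window and were not tested.

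The receptors of the importin beta family bind FG repeats and Ran directly. Of 11 members 7 fell, 2 rose and 2 were not called. TNPO1, or transportin, imports RNA-binding proteins such as hnRNP A1. It stood at 387, 354 and 363 CPM in the controls and at 237, 228 and 234 CPM in the knockdown libraries. The groups lay far apart, and on the log2 scale TNPO1 fell by 0.66 (SE 0.0473, adjusted p = 7.2e-14), to 63.3% of control. Its paralog TNPO2 was at 102, 95.0 and 85.2 CPM in the controls and at 96.3, 88.8 and 97.1 CPM in the knockdown libraries. These ranges overlap, and TNPO2 was not called, with a log2 fold change of 0.00 (SE 0.0641, adjusted p = 0.98). TNPO3, which imports SR splicing factors, was at 154 ± 4.26 and 139.5 ± 5.56 CPM (SD, n = 3 each) and fell by 0.14 (adjusted p = 0.0335). This call was lost without control replicate 1 (adjusted p = 0.121), control replicate 3 (0.0507), knockdown replicate 2 (0.146) or knockdown replicate 3 (0.1).

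IPO7 and IPO8 are a second pair of paralogs, and they moved in opposite directions. IPO7, an import receptor for ribosomal proteins among other cargo, was at 520.4, 477 and 497 CPM in the controls and at 342, 343 and 375 CPM in the knockdown libraries. No knockdown library reached a control, and IPO7 fell by 0.50 (SE 0.0468, adjusted p = 7.26e-11), to 70.9% of control. IPO8, used in import of microRNA-loaded Argonaute and of SMAD proteins, was at 1245, 1175 and 1280.3 CPM in the controls and at 1313, 1344 and 1342 CPM in the knockdown libraries. The ranges were close but did not overlap, and IPO8 rose by 0.11 (SE 0.0393, adjusted p = 0.0214). The IPO8 call was lost without control replicate 2 (adjusted p = 0.112), without knockdown replicate 2 (0.0939), when genes of low counts were kept (0.0539) and under length and GC offsets (log2 fold change 0.03, adjusted p = 0.567). Per length, IPO8 had the highest level of the 44 genes, at 178 CPM per kb of exonic sequence in the controls and at the 99.8th percentile of all tested genes by CPM. No annotated exon of another gene overlaps its exons. Next in level per length in the controls were XPOT (95.7 CPM per kb), KPNA2 (93.8), IPO7 (68.8) and KPNB1 (59.1).

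KPNB1 encodes importin beta, the receptor that carries importin alpha with its cargo and also imports some cargo alone. It was at 459, 446 and 456 CPM in the controls and at 397, 387 and 391 CPM in the knockdown libraries. The groups did not overlap, and KPNB1 fell by 0.21 (SE 0.0432, adjusted p = 0.000125). IPO5, an importer of ribosomal proteins and core histones, fell by 0.35, from 330.0 ± 11.2 to 259 ± 11.6 CPM (SD, n = 3 each). IPO13, which carries cargo both ways, fell by 0.36, from 30.1 ± 1.39 to 23.5 ± 0.642 CPM (SD, n = 3 each). IPO11 fell by 0.30 (adjusted p = 0.00674), a call lost without knockdown replicate 1 (0.0623). IPO11 shares 16.96% of its exonic bases with LRRC70 and 5.68% with KIF2A on the same strand, so its counts are uncertain. IPO9, an importer of histones and actin, was not called, at 159 ± 7.14 and 165 ± 5.99 CPM (SD, n = 3 each). IPO4 had raw counts of 4, 4 and 0 in the controls, against 19, 13 and 14 after knockdown, and the fit gave a log2 fold change of 2.46 (SE 0.707, adjusted p = 0.00505). At such counts the size of the rise is poorly known, and IPO4 did not pass the stricter filter of a mean of 1 CPM. Annotation places 69.3% of its exonic bases in a readthrough gene of the same strand, AL136295.4, and the sources used here do not say how reads shared by both were counted.

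**Figure D2:**
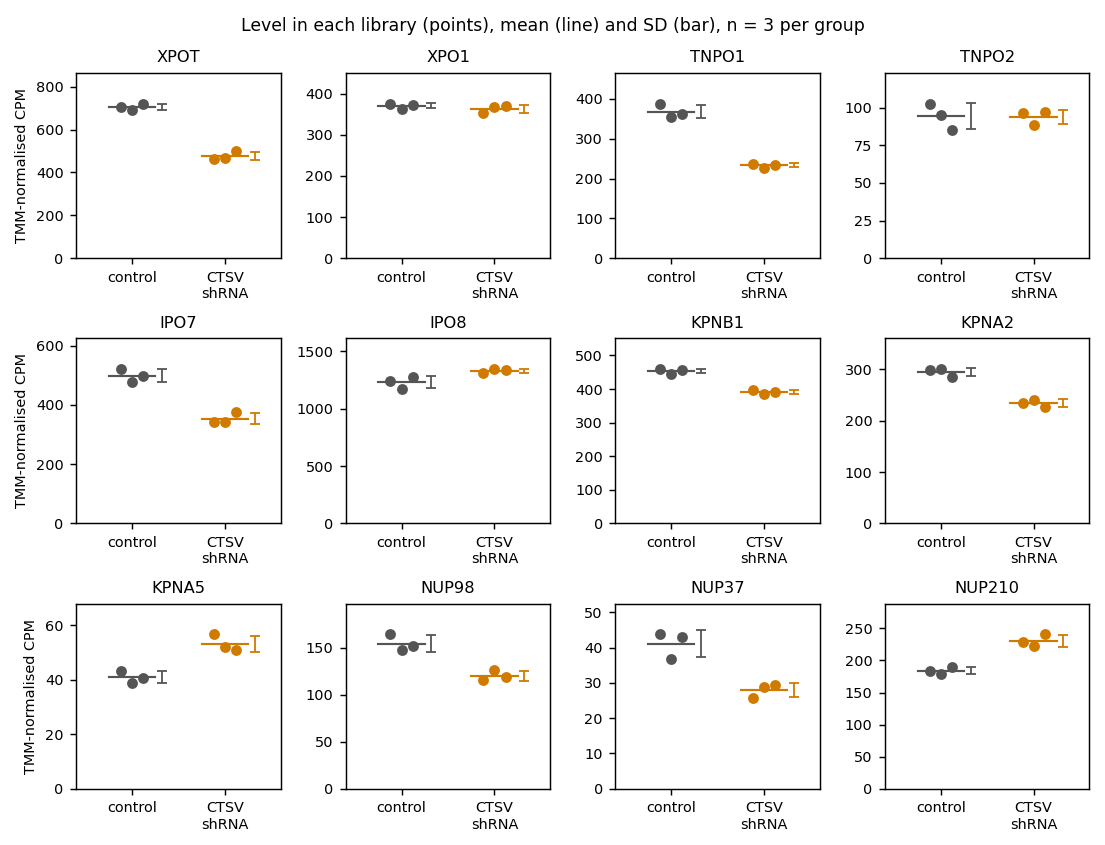
TMM-normalised CPM of 12 genes in each library (points), with group mean (line) and SD (bar), n = 3 per group, on axes that start at 0. TNPO1, XPOT, IPO7, KPNB1, KPNA2, NUP98 and NUP37 are lower in each knockdown library, KPNA5, NUP210 and IPO8 are higher, and the groups of XPO1 and TNPO2 overlap.

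The importin alphas are the adaptors that read classical nuclear localisation signals. Of 7, 3 fell (42.9%), 1 rose (14.3%) and 3 were not called. Among all tested genes at 10 CPM or more, 33.4% were called lower and 19.7% higher. KPNA7, not called, lies below that level. KPNA2, whose level is linked to proliferation in many tumours, was at 299, 299.8 and 285 CPM in the controls and at 235, 241 and 226 CPM in the knockdown libraries. The groups were clearly separated, and KPNA2 fell by 0.33 (SE 0.0474, adjusted p = 4.84e-07). KPNA3 and KPNA4 are close paralogs of each other. KPNA3 was at 141, 134 and 140.4 CPM in the control libraries, against 117, 119 and 117 CPM after knockdown, and fell by 0.23 (adjusted p = 0.000561). KPNA4 was at 163, 161 and 168 CPM in the controls and 139.8, 142 and 139 CPM in the knockdown libraries, and fell by 0.23 (adjusted p = 0.000418). In both, each knockdown library was below each control.

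In the other subfamily, KPNA1, KPNA5 and KPNA6, 1 gene rose and 2 were not called. KPNA5 was at 43.3, 38.8 and 40.5 CPM in the controls and at 56.6, 52.0 and 50.9 CPM in the knockdown libraries. All knockdown libraries were higher, and KPNA5 rose by 0.38 (SE 0.0778, adjusted p = 0.000152), to 129.9% of control. KPNA6 was at 93.6, 79.4 and 89.3 CPM in the controls and at 87.0, 86.3 and 87.9 CPM in the knockdown libraries, and was not called (log2 fold change -0.01, adjusted p = 0.946). KPNA1 was at 104, 107 and 111 CPM in the controls and at 104, 105 and 97.8 CPM in the knockdown libraries, and was not called (-0.07, adjusted p = 0.365). With length and GC offsets KPNA1 was called lower (-0.17, adjusted p = 0.00993). An antisense gene, AC083798.2, overlaps 16.3% of the exonic bases of KPNA1, and its counts cannot be separated where strand was not used. KPNA7, an importin alpha known from oocytes and embryos, was near the limit of detection, at 1.12, 1.44 and 0.81 CPM in the controls and 1.33, 0.727 and 0.495 CPM in the knockdown libraries.

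The make-up of the importin alpha pool is given as each gene's share of the summed CPM per exonic base. In the controls KPNA2 made up 54.9% ± 1.28, and after knockdown 51.5% ± 0.502 (SD, n = 3 each). KPNA5 made up 2.1% ± 0.0953 and 3.22% ± 0.162, KPNA6 6.85% ± 0.523 and 8.06% ± 0.268, and KPNA1 7.44% ± 0.342 and 8.38% ± 0.138. For these 4 genes the groups were apart, and a permutation test (exact, two-sided, 3 libraries against 3) gave p = 0.1, the smallest it allows (adjusted p = 0.175 over the 7 genes). A share also depends on the other genes in the sum: by level KPNA5 rose, but KPNA1 and KPNA6 were not called. KPNA3 (18.1% and 18.2%, exact p = 1), KPNA4 (10.2% and 10.3%, exact p = 0.6) and KPNA7 (0.382% and 0.34%, exact p = 0.8) had overlapping groups. Taken from counts not divided by length, the share of KPNA2 was 35.3% in controls and 31.8% after knockdown, that of KPNA3 16.6% and 16.01%, that of KPNA4 19.7% and 19.1%, and that of KPNA5 4.9% and 7.23%. On that scale the groups of KPNA3 and of KPNA4 no longer overlapped, and both shares were lower after knockdown (exact permutation p = 0.1 each, the smallest possible).

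**Figure D3:**
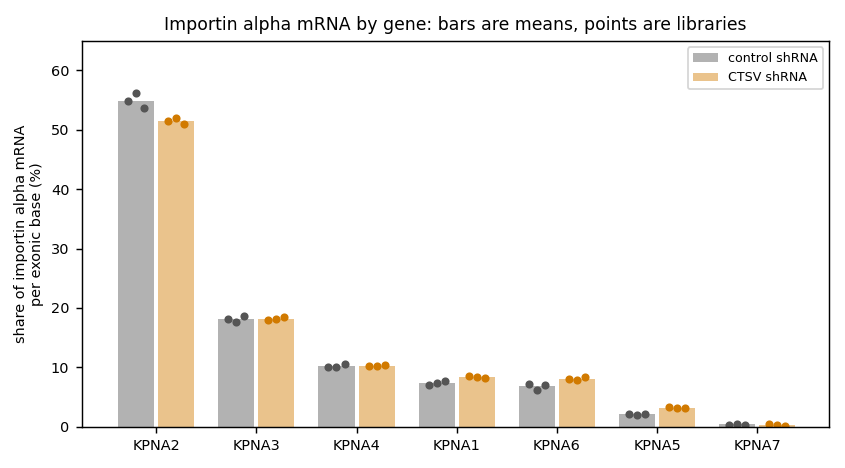
Share of each importin alpha gene in the summed importin alpha level per exonic base, in percent, with group means as bars and libraries as points. KPNA2 holds 54.9% in controls and 51.5% in knockdown libraries, while KPNA1, KPNA6 and KPNA5 hold larger shares in the knockdown libraries. By level KPNA5 rose, and KPNA1 and KPNA6 were not called.

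Among the exportins 5 of 6 fell and 0 rose. XPOT, the exporter of mature tRNA, was at 707, 689 and 719 CPM in the controls and at 463, 466 and 498 CPM in the knockdown libraries. The groups did not come near each other, and XPOT fell by 0.57 (SE 0.043, adjusted p = 3.24e-13), to 67.5% of control. XPO6, the exporter of actin and profilin, was at 104, 105 and 114 CPM in the controls and at 83.4, 84.3 and 88.8 CPM in the knockdown libraries. These ranges did not overlap either, and XPO6 fell by 0.33 (SE 0.0593, adjusted p = 2.42e-05). XPO5, which exports precursor microRNA, fell by 0.28, and XPO7 by 0.24. XPO4, which exports the translation factor eIF5A, fell by 0.16 (adjusted p = 0.0198). The XPO4 call was lost without control replicate 1 (adjusted p = 0.0921) or knockdown replicate 1 (0.0885).

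XPO1 (CRM1), the exporter of proteins with leucine-rich export signals, was the 1 exportin of the 6 not called. It was at 375, 363 and 372 CPM in the controls and at 352, 367 and 369.95 CPM in the knockdown libraries. The ranges overlap, and XPO1 was not called, with a log2 fold change of -0.03 (SE 0.0445, adjusted p = 0.664). With length and GC offsets it was called lower (-0.16, adjusted p = 0.000823). The log2 ratio of XPOT to XPO1 counts, which does not depend on library scaling, was 0.93 ± 0.0175 in controls and, after knockdown, 0.39 ± 0.0419 (SD, n = 3 each). The same ratio for TNPO1 to TNPO2 was 1.97 ± 0.106 and 1.31 ± 0.044, and for IPO7 to IPO8 it was -1.31 ± 0.0536 and -1.92 ± 0.0685. For KPNA5 to KPNA6 it was -1.1 ± 0.0555 and -0.71 ± 0.085. For KPNA3 to KPNA4 it was -0.25 ± 0.0283 and -0.25 ± 0.00546, with overlapping groups. These pairs were chosen after the values were seen, so they are given without a test.

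**Figure D4:**
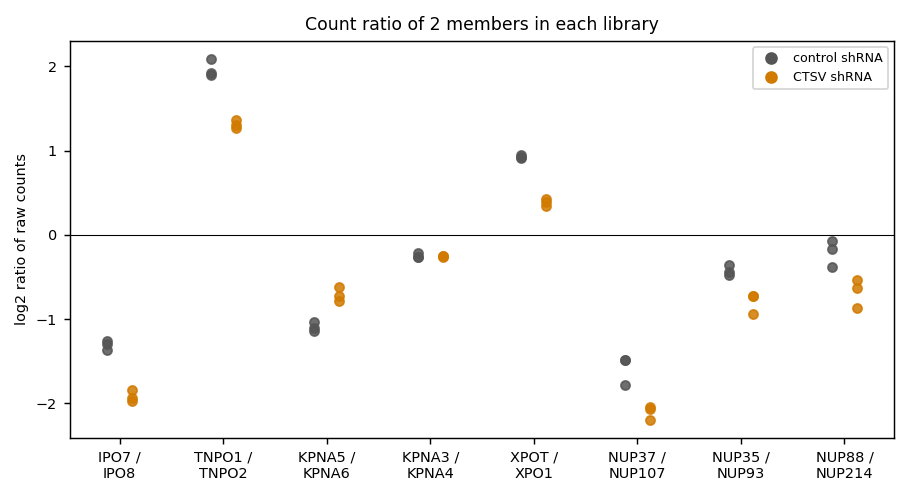
Log2 ratio of raw counts of 2 genes within each library, for 5 pairs of receptors and 3 pairs of nucleoporins, with control libraries in grey and CTSV shRNA libraries in orange. The groups are apart in all pairs drawn except KPNA3 and KPNA4, whose ratio is near -0.25 in both.

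Of 6 nucleoporins of the Y complex, the scaffold of the outer rings, NUP37 fell and 5 were not called. NUP37, a peripheral propeller subunit, was at 43.7, 36.6 and 43.0 CPM in the controls and at 25.8, 28.9 and 29.4 CPM in the knockdown libraries. Each knockdown library was lower, and NUP37 fell by 0.55 (SE 0.0913, adjusted p = 6.4e-06), to 68.2% of control. The core subunits NUP107 (-0.03), NUP133 (-0.08) and NUP160 (-0.05), and NUP85 (0.06) and NUP43 (0.01), were not called. NUP107, for example, was at 122, 126 and 121 CPM in the controls and 118, 119 and 124 CPM in the knockdown libraries. With length and GC offsets NUP107, NUP133 and NUP160 were called lower as well, at -0.13, -0.15 and -0.15, and the sign of NUP43 turned (-0.06, not called). The log2 ratio of NUP37 to NUP107 counts was -1.59 ± 0.171 in controls and, after knockdown, -2.1 ± 0.0824 (SD, n = 3 each).

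In the inner ring, which lines the channel and anchors its FG nucleoporins, 4 of 5 fell. NUP35, which also binds the membrane, was at 42.1, 43.6 and 47.1 CPM in the controls and at 32.8, 31.6 and 29.05 CPM in the knockdown libraries. The groups were separate, and NUP35 fell by 0.51 (SE 0.0853, adjusted p = 8.14e-06). NUP155, a scaffold subunit, was at 177, 182 and 188 CPM in the controls and 150.3, 166 and 155 CPM in the knockdown libraries. It fell by 0.22 (SE 0.0521, adjusted p = 0.000988), again without overlap. The large scaffold subunits NUP188 (-0.21, adjusted p = 0.00613) and NUP205 (-0.13, adjusted p = 0.0304) also fell. NUP188 was not called without control replicate 3 (adjusted p = 0.0976) or knockdown replicate 1 (0.0527). NUP205 was not called without control replicate 1 (0.0586), control replicate 3 (0.135), knockdown replicate 1 (0.0932) or knockdown replicate 2 (0.0858). NUP93, the linker of the ring, was not called (-0.14, adjusted p = 0.118), and was called lower with length and GC offsets (-0.26, adjusted p = 0.00173).

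The FG nucleoporins of the central channel carry the binding sites that receptors use in passage. NUP98, also a fusion partner in leukaemia, was at 164, 147 and 152 CPM in the controls and at 116, 126 and 119 CPM in the knockdown libraries. No knockdown library reached a control, and NUP98 fell by 0.36 (SE 0.0557, adjusted p = 2.03e-06). Its transcript also encodes NUP96, a Y complex subunit cut from the same precursor protein. NUP58, a subunit of the channel trimer, was at 116, 109.7 and 119 CPM in the controls and at 91.2, 95.8 and 97.1 CPM in the knockdown libraries. It fell by 0.28 (SE 0.0574, adjusted p = 0.000166), and its partner NUP54 fell by 0.26 (adjusted p = 0.00102). NUP62, the third subunit of that trimer, was at 55.1, 67.04 and 62.05 CPM in the controls and at 56.7, 55.1 and 55.5 CPM in the knockdown libraries. Control replicate 1 lay within the knockdown range, and NUP62 was not called (-0.14, SE 0.0735, adjusted p = 0.136). Without control replicate 1 it was called lower (-0.22, adjusted p = 0.03), as it was with length and GC offsets (-0.21, adjusted p = 0.0123). ATF5, on the opposite strand, overlaps 10.4% of the exonic bases of NUP62, and its own counts were 421 over the 3 controls and 252 over the 3 knockdown libraries.

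On the cytoplasmic face NUP88 fell and its partner NUP214 was not called. NUP88 was at 63.1, 66.9 and 76.6 CPM in the controls and at 47.4, 50.7 and 53.9 CPM in the knockdown libraries. The groups were separate, and NUP88 fell by 0.44 (SE 0.0755, adjusted p = 1.1e-05). RABEP1 and RPAIN, both on the opposite strand, overlap 8.84% and 9.82% of the exonic bases of NUP88, and the sources used here do not say whether strand was used in counting. NUP214, an FG nucleoporin that docks export complexes, was at 79.7 ± 8.4 and 81.1 ± 4.62 CPM (SD, n = 3 each) and was not called. Its log2 fold change was 0.03, and -0.11 with length and GC offsets (not called). In the nuclear basket NUP153 was at 161, 144 and 157 CPM in the controls and 118, 129 and 137 CPM in the knockdown libraries, and fell by 0.27 (SE 0.0578, adjusted p = 0.000249). NUP50, which helps release cargo from importin alpha, was not called (-0.13, adjusted p = 0.0607). It was called lower without control replicate 2 (adjusted p = 0.0195), without knockdown replicate 1 (0.0446), with length and GC offsets (0.000311), with the replicate number as a block (0.0469), when genes of low counts were kept (0.041) and without mitochondrial genes (0.0498).

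NUP210, the only nucleoporin of the 20 to rise, is a membrane-spanning glycoprotein whose level differs between tissues. It was at 183, 178 and 189 CPM in the controls and at 229, 222 and 241 CPM in the knockdown libraries. All knockdown libraries were higher, and NUP210 rose by 0.33 (SE 0.0497, adjusted p = 1.33e-06), to 125.7% of control. On hg38 the gene spans chr3:13316235-13420309, minus strand. Its related names NUP210L and NUP210P3 held 24 and 2 counts over the controls and 31 and 12 over the knockdown libraries. Pseudogenes of other members were similarly low, with 62 and 51 counts for XPOTP1 and 2 and 0 for TNPO1P1. IPO5P1 held 336 and 511 counts, against at least 4107 per library for IPO5.

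The partners of these genes that the naming rule leaves out were taken from a list of 49 names, of which 46 were in the table and 44 were tested. Of these 21 fell (47.7%) and 7 rose (15.9%), with a median log2 fold change of -0.20. Over all tested genes 21.6% were called lower and 18.7% higher. Over those at 10 CPM or more the shares were 33.4% and 19.7%, with a median of -0.07. With length and GC offsets 24 were called lower and 3 higher, and without control replicate 1 20 were called lower and 4 higher. Of the Ran cycle, which gives transport its direction, 6 of 6 tested genes fell, with a median of -0.37. RAN was at 322, 339.9 and 327 CPM in the controls and at 243, 252 and 239 CPM in the knockdown libraries. The groups were far apart, and RAN fell by 0.43 (SE 0.0465, adjusted p = 1.46e-09). RANBP1, which helps the hydrolysis of GTP on Ran, fell by 0.50, from 245 ± 9.56 to 173 ± 10.7 CPM (SD, n = 3 each, adjusted p = 5.56e-10). The GTPase activator RANGAP1, the exchange factor RCC1, the Ran importer NUTF2 and the export cofactor RANBP3 were the others that fell.

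Of 12 further nucleoporins 6 fell (50%) and 0 rose, against 33.4% and 19.7% of all tested genes at 10 CPM or more. SEC13, shared with the COPII coat of secretory vesicles, fell by 0.40 (adjusted p = 1.13e-07), and SEH1L fell by 0.42 (adjusted p = 5.22e-07). Both are Y complex subunits, as is NUP37. The filament nucleoporin RANBP2 was at 462, 422 and 457 CPM in the controls and 466, 468 and 512 CPM in the knockdown libraries, and was not called (0.11, adjusted p = 0.0583), although the groups did not overlap. It was called higher without knockdown replicate 1 (adjusted p = 0.0411), with the replicate number as a block (0.031) and when a mean of 1 CPM was required (0.044), and its sign turned with length and GC offsets (-0.03, not called). The basket protein gene TPR, at 321 ± 21.9 and 339 ± 8.77 CPM (SD, n = 3 each), was not called either (0.08, and -0.06 with length and GC offsets). Reads of RANBP2 and of POM121 and POM121C can be shared with near-identical genes.

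CSE1L, which returns importin alpha to the cytoplasm, was at 384, 373 and 393 CPM in the controls and 356, 357 and 354 CPM in the knockdown libraries. The groups did not overlap, but the fall of 0.11 was just past the threshold (adjusted p = 0.0485). It was lost without control replicate 1 (0.0834), control replicate 3 (0.155) or any 1 of the knockdown replicates (0.0922, 0.103 and 0.12), and when a mean of 1 CPM was required (0.061). Of 20 tested genes of mRNA export 6 rose (30%) and 7 fell (35%), shares to be read against 19.7% and 33.4% of all tested genes at 10 CPM or more. With length and GC offsets 3 were called higher (DDX39B, THOC1 and CHTOP) and 9 lower. The RNA helicase gene DDX39B rose by 0.36 (adjusted p = 1.98e-06), and the TREX complex genes THOC1 (0.32), THOC2 (0.22) and CHTOP (0.23) rose. The THOC2 call was lost with the offsets (0.092, adjusted p = 0.106), and these 4 kept their calls when any 1 library was left out. Other genes of that complex went the other way. THOC3 fell by 0.44 (adjusted p = 5.13e-06) and THOC5 by 0.20 (adjusted p = 0.00595), and the remaining THOC genes tested were not called. NXT1, the partner of the mRNA export receptor NXF1, and the adaptor gene ALYREF fell, by 0.54 and 0.51. NXF1 itself rose by 0.20 (adjusted p = 0.0114), a call lost with the offsets and without control replicate 1 or knockdown replicate 3. The helicase gene DDX39A fell by 0.32 (adjusted p = 0.000135), while DDX39B rose.

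**Figure D5:**
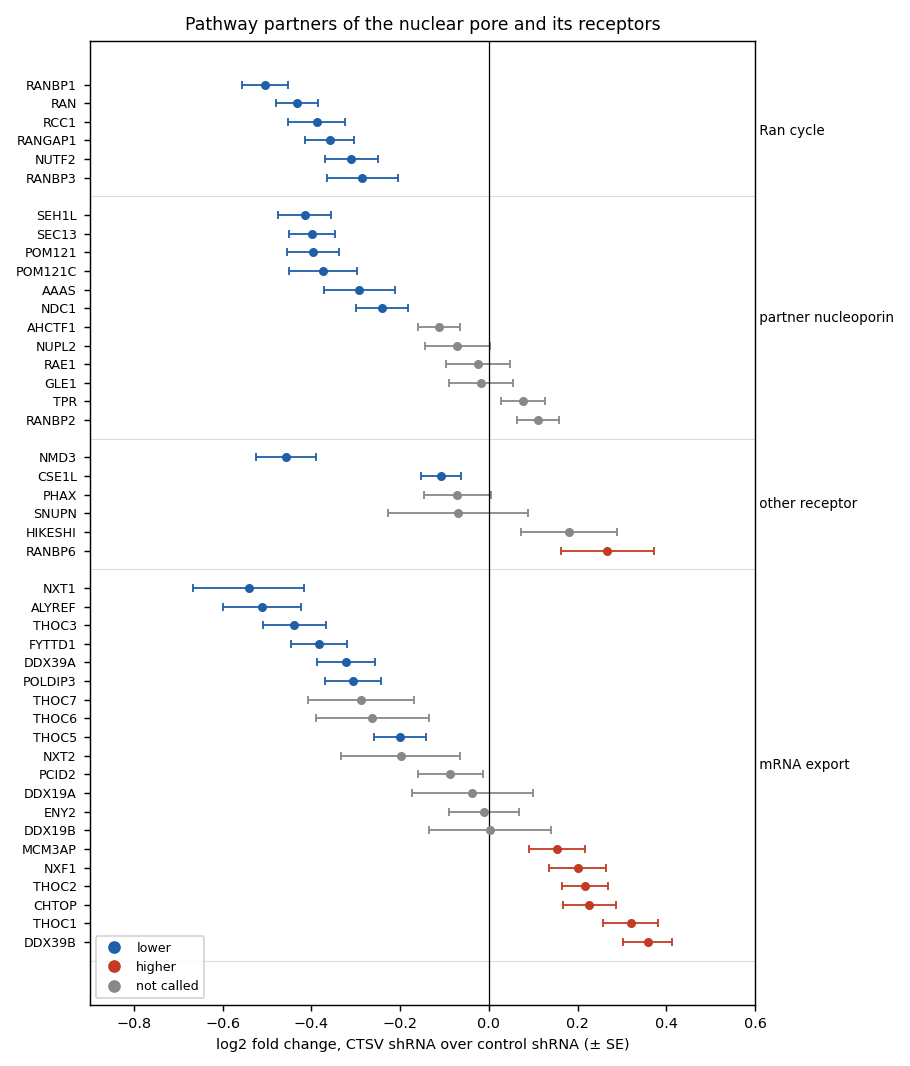
Log2 fold change of the 44 tested partner genes (points, with SE as bars), CTSV shRNA over control shRNA, in 4 functional groups and coloured by the edgeR call. All 6 Ran cycle genes lie left of zero, while mRNA export genes spread from NXT1 (-0.54) to DDX39B (0.36).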

How the data were processed

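The authors deposited raw read counts per gene. The submitters' processing notes name hg38, HISAT2, StringTie and SAMtools, and the sources used here do not give the counting tool, annotation or strand use. Log2 fold changes (control over knockdown) and p-values of the authors, deposited beside the counts, were not used.

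Of 28915 entries, 1521 were copies of a name with equal counts and were removed. Counts were fitted over all genes with edgeR 4.0.16 (R 4.3.3; TMM, filterByExpr, glmQLFit and glmQLFTest, no covariate), with DESeq2 1.42.0 as an alternative. Calls were made at an adjusted p under 0.05. The common biological coefficient of variation was 6.87%. Replicates of a group differed by more than sampling noise (chi-square per degree of freedom 3.59 to 5.39). Exonic lengths came from GENCODE v29, in which all 44 genes had the same coordinates, and promoters from RefSeq. In 35 of 38 promoters, bases after the start were found in an annotated transcript of the gene.

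Values of each library are given for the called genes with the 2 largest rises and falls in each class, for all importin alphas, and for KPNB1, XPO1, NUP62 and NUP98. Partners named by rule were RAN, CSE1L, RANBP2, TPR and the 4 rises and 4 falls with the smallest p. Others are named where they complete a class or show an alternative, chosen after their values were seen. The genes and lists were chosen with earlier results of these data known. Alternatives were size factors by RLE, other count filters, the replicate number as a block, DESeq2, length and GC offsets (loess, span 0.5) and leaving out each library; leaving out mitochondrial genes, and shares not divided by length, were added after seeing the data.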

Additional observations from a re-analysis of the deposited data

How the results depend on the processing

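Against 25 genes that fell and 4 that rose, the counts were 25 and 4 with RLE size factors and with DESeq2 (the same genes), 26 and 4 without mitochondrial genes (added after seeing the data), 26 and 3 without a filter, 25 and 3 when a mean of 1 CPM was required, and 22 to 26 and 3 to 4 with 1 library left out. The median log2 fold change was -0.30 with length and GC offsets, under which the median over all tested genes moved as well, from 0.02 to -0.07. With 1 library left out the median of the 44 genes was between -0.22 and -0.18. Partners that rose numbered 7, 3 with those offsets (24 fell) and 4 to 7 with 1 library left out (20 to 22 fell). CTSV stayed between -1.40 and -1.30 when a library was left out. The replicate numbers did not pair the libraries (correlations of deviations -0.0122, -0.00253 and 0.0212). With the replicate block 26 genes fell and 4 rose, and the median was -0.21; NUP50 and RANBP2 gained a call and no other named gene changed its call. Signs turned only in genes that were not called: with offsets NUP43 (-0.062), NUP214 (-0.11), IPO9 (-0.068), RANBP2 (-0.027) and TPR (-0.057), without a filter NUP43 (-0.0055), TNPO2 when a mean of 1 CPM was required (0.0035) and with the replicate block (0.000296), and over the left-out libraries NUP43 (-0.024 to 0.059), NUP214 (-0.062 to 0.082), KPNA6 (-0.075 to 0.040), NUP85 (-0.050 to 0.15) and TNPO2 (-0.073 to 0.057). The cause was not tested. Depth limits IPO4 and KPNA7, which have few counts.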
